A study of Mus musculus with 4 samples.

Results

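The genes described here are 10 immediate early genes of the AP-1 and EGR families and their close companions, taken by symbol from the 32285 genes counted in single cells of MC38 tumors: Fos, Fosb, Jun, Junb, Jund, Egr1, Egr2, Atf3, Dusp1 and Ier2. All 10 were found once each. MC38 is a mouse colon adenocarcinoma line, grown here as subcutaneous tumors in young C57BL/6 mice. The tumors came from WT cells or from cells in which CRISPR-Cas9 knock-in had placed a homozygous A159V substitution in the endogenous RAC1 gene. The edited cells are of 1 clone, the one the study uses where it names no other. How many tumors entered a library is not given in the sources used here. Mice received anti-PD1 or the IgG isotype control, giving 1 library for each of 4 groups: WT IgG and WT anti-PD1, then A159V IgG and A159V anti-PD1. The host cells carried no edit in any group, so the genotype names the tumor cells only.

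Immediate early genes are transcribed within minutes of a stimulus and need no new protein synthesis, because the factors that bind their promoters are already present and are switched on by ERK, p38, calcium or NF-κB signaling. FOS and JUN proteins pair to form AP-1, EGR1 and EGR2 are zinc finger factors of the same early wave, and products such as DUSP1 shut the signal down again. In T cells they follow antigen receptor engagement, and in myeloid cells they follow microbial and inflammatory signals. They are also known to be induced while tissue is digested at warm temperature, and these tumors were digested with collagenase before CD45+ and CD45− cells were separated on beads and remixed. RNA made before and after digestion cannot be told apart in these counts.

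With 1 library per group there was no replicate, so no test was made, and every interval below covers counting error only. Levels are unique molecular identifiers (UMIs) added up over a class's cells in 1 library and scaled to 1000000 UMIs of that class (CPM), with exact Poisson intervals. Ratios are log2 ratios of CPM after adding 1 CPM, with 95% delta-method intervals. A gene is called higher or lower when it differed 2-fold or more, a log2 ratio of 1, and reached 50 CPM in 1 of the libraries compared. The libraries held 7430 to 9311 barcodes and 54402632 to 125227747 UMIs. After filtering, 29184 cells remained, of which 21554 (73.9%) were gated by marker UMIs into 12 classes named by lists of markers, each with the suffix -like. The label of the tumor-like cells was checked: Rhox5 stood at 979, 1100 and 1063 CPM in WT IgG, A159V IgG and A159V anti-PD1, whereas the epithelial markers Krt7, Krt8, Krt18 and Epcam were near 0. A class entered a comparison only with at least 50 cells in both libraries, and WT anti-PD1 held 40 tumor-like cells, so that class has no value there. A sum over a class cannot tell fewer expressing cells from less RNA per cell.

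The promoters of 4 members that recur below, Fosb, Fos, Junb and Dusp1, are shown, because the letters that early factors read lie close to their starts. That of Egr1, which recurs below as well, is not shown. The sequences are the 250 bases before the RefSeq transcription start on GRCm38.p6, read 5′ to 3′ along the gene's strand. Capitals mark the core of the cAMP response element (CRE core, TGACG, or CGTCA on the other strand), which CREB and ATF factors bind, the EGR site (GCGNGGGCG) and a TATAA box. Fosb lies at chr7:19310046-19310295 on the minus strand, Junb at chr8:84978749-84978998 on the minus strand, Fos at chr12:85473640-85473889 on the plus strand and Dusp1 at chr17:26508473-26508722 on the minus strand.
Fosb: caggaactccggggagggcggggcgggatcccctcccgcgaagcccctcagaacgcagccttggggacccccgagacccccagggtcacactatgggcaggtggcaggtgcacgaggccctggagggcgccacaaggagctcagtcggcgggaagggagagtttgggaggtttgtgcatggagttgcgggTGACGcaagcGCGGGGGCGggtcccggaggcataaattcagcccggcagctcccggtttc
Junb: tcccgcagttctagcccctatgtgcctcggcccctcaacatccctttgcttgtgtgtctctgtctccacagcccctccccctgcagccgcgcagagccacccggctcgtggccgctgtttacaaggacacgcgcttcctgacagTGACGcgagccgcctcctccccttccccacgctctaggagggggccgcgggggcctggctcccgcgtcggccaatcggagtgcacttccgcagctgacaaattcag
Fos: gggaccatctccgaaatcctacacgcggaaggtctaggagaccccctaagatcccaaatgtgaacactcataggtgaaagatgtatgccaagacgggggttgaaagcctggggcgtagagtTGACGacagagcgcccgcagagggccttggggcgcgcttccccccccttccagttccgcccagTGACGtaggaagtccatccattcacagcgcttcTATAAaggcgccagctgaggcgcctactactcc
Dusp1: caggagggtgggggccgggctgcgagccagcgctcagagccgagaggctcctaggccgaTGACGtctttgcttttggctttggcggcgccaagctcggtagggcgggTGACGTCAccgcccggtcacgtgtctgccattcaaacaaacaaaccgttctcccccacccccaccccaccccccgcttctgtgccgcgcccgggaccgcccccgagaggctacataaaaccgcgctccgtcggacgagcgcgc
A CRE core was found in 6 of the 8 members with a promoter in the RefSeq table (Atf3, Dusp1, Egr2, Fos, Fosb and Junb) and in 17.8% of all 32851 promoters of this length. A member was counted if any of its starts had the motif, and the 8 members have 12 starts. The shares of all promoters are per start, so the 2 measures are not alike. The full element TGACGTCA, which contains the core on both strands, was found in Dusp1 alone among the 8 and in 1.55% of all promoters. The EGR site was found in Fosb alone among them, 50 bases before the start, and in 4.70% of all. TATAA on the gene's strand was found in Fos and Egr2 and in 16.0% of all, and a CArG box, read by serum response factor, in Egr2 and in 1.47%. The AP-1 site TGANTCA, searched on both strands as were all but TATAA, was in no window of the 8 members and in 6.75% of all promoters. These are matches of letters in a window and not sites shown to be bound.

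Summed over the 10 members, levels were highest in neutrophil-like, macrophage-like and monocyte-like cells and lowest in NK-like and CD8 T-like cells in each library. CD4 T-like and Treg-like cells were not as low, and the CD4 T-like sum of WT anti-PD1, 5358 CPM, was above the 4273 and 3081 CPM of its conventional and mature dendritic-like cells. Wherever 4 values are given below, they follow the order of the groups named at the start, both WT libraries first and IgG before anti-PD1. As a share, the 10 genes took 2.17%, 2.88%, 1.55% and 1.87% of neutrophil-like UMIs. In NK-like cells the shares were 0.145%, 0.184%, 0.136% and 0.124%, and in CD8 T-like cells 0.211%, 0.216%, 0.141% and 0.154%. Fos, the founding AP-1 subunit, stood at 2162 CPM in neutrophil-like and 27.1 CPM in NK-like cells of WT IgG, 79.9-fold apart. In that library 8 of 11 neighboring pairs of classes in the order of Fos levels had intervals that did not overlap. For Fosb it was 3 of 11. Jund, the JUN member that is present without a stimulus in most cells, was flatter than Fos, with 1297 CPM in neutrophil-like and 284 CPM in mature dendritic-like cells of WT IgG, 4.57-fold apart. Ier2 was as flat there, with 525 CPM in neutrophil-like and 116 CPM in NK-like cells, 4.53-fold apart. Mature dendritic-like cells were lowest for Jund in all 4 libraries.

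**Figure D1:**
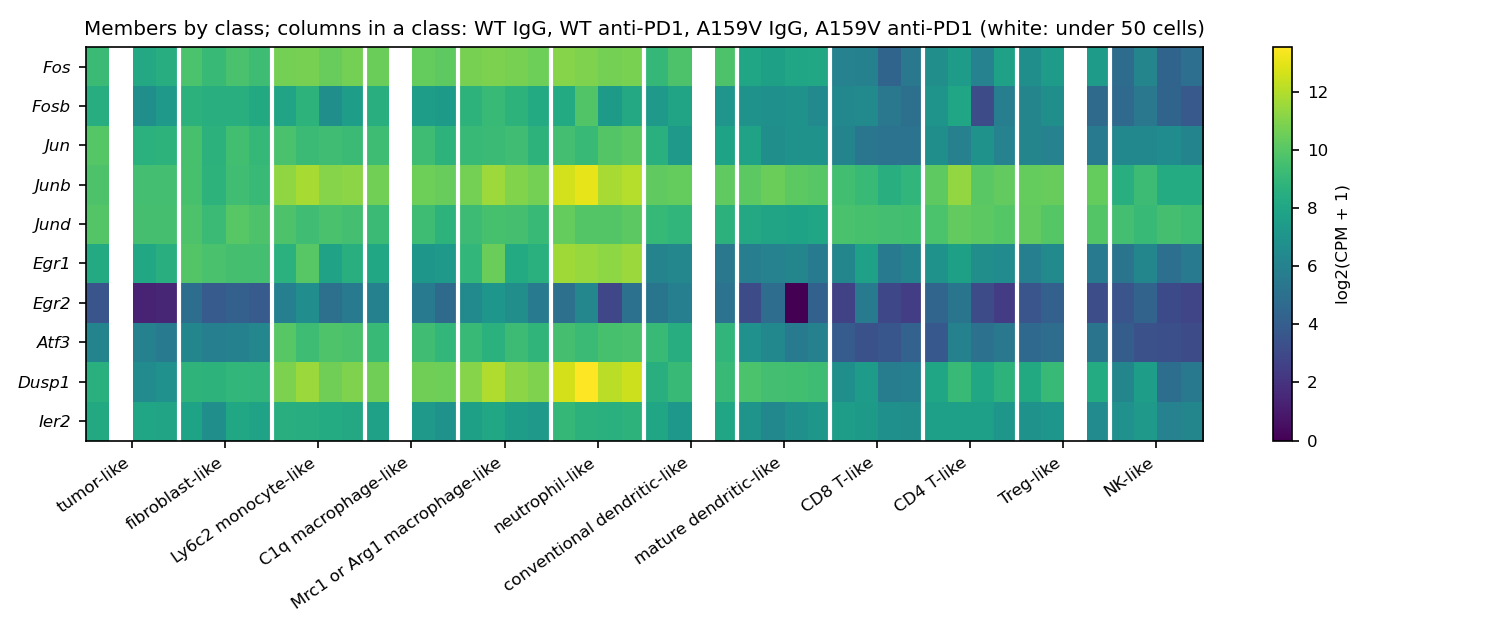
Heat map of the levels of the 10 members (rows) as log2 of CPM plus 1, from dark for low to yellow for high, with 1 column per library in each marker-gated class and white where a class held fewer than 50 cells. Neutrophil-like columns are the brightest for Junb, Egr1 and Dusp1 and NK-like columns are dark for Fos and Fosb, whereas the Jund row varies little.

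Among members that reached 50 CPM, tumor-like cells, the class that carries the edit, showed the widest difference between the IgG libraries with large counts behind it. Dusp1, the phosphatase that inactivates p38 and JNK, stood at 393 CPM (95% interval 388 to 398) in WT IgG, 93.3 CPM (91.4 to 95.4) in A159V IgG and 116 CPM in A159V anti-PD1. Fosb, an inducible FOS subunit, stood at 352, 108 and 155 CPM in the same libraries. Jun, the main transactivating JUN subunit, stood at 1016, 406 and 427 CPM, and Fos at 602, 283 and 344 CPM. WT IgG was the high library for each of these, and both A159V libraries lay below it without overlap of the counting intervals. The log2 ratios of A159V IgG over WT IgG were −2.06 (−2.10 to −2.03) for Dusp1, −1.70 (−1.74 to −1.67) for Fosb, −1.32 (−1.34 to −1.30) for Jun and −1.08 (−1.11 to −1.06) for Fos. These 4 were called lower among 9 members tested in tumor-like cells, where 3.23% of 3624 genes were called lower. The other members tested were closer: Egr1 stood at 307, 270 and 353 CPM and Junb at 876, 722 and 724 CPM. Egr2 stayed under 50 CPM in tumor-like cells and was not tested. Its log2 ratio of −2.24 was the lowest of the 10 members.

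The lower Fosb and Dusp1 of A159V tumor-like cells was seen in the share of cells as well as in the sum. Cells were thinned to 1500 UMIs to equalize depth. The share with a UMI of Fosb was then 35.3% (exact binomial interval 33.0 to 37.6) in WT IgG, 14.6% (13.3 to 15.9) in A159V IgG and 19.7% (18.0 to 21.4) in A159V anti-PD1, and without thinning 87.4%, 68.7% and 80.3%. For Dusp1 the shares were 38.0%, 11.9% and 13.6%, and without thinning 86.4%, 66.6% and 78.9%. The order of the libraries was the same with and without thinning. Cells with UMIs of 3 or more members made up 72.1%, 55.4% and 59.2% after thinning. In NK-like cells of WT IgG, the class with the lowest Fosb level, the thinned share was 5.39% at a median depth of 4515 UMIs per cell, against 31463 UMIs in tumor-like cells, and no class is known to lack Fosb. The 2 tumor-like IgG libraries had median depths of 31463 and 31085 UMIs.

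Some other measures moved with the tumor-like difference. The median mitochondrial share was 4.18%, 2.89% and 3.56% of UMIs in WT IgG, A159V IgG and A159V anti-PD1. All 6 fibroblast markers (Col1a1, Col1a2, Col3a1, Dcn, Lum and Pdgfra) were detected in the 3 libraries, and their summed level was 323, 111 and 94.0 CPM. That sum was 0.619% of the level in WT IgG fibroblast-like cells, and fibroblast RNA at that share would hold 2.59 CPM of Fosb, 2.78 CPM of Dusp1 and 5.22 CPM of Fos. Dcn taken alone stood at 204 CPM in WT IgG, 6.36% of its fibroblast-like level, a share that would hold 53.6 CPM of Fos, against 2.44% and 1.33% in the A159V libraries. The 40 tumor-like cells of WT anti-PD1 held 297 CPM of Fosb, 301 CPM of Dusp1, 426 CPM of Jun and 239 CPM of Fos. Fosb and Dusp1 there lay nearer WT IgG, and Jun and Fos nearer the A159V libraries. Clone, tumor and library cannot be told apart.

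The tumor-like cells of the libraries lay in different clusters, so part of this comparison is between clusters. A cluster led by Sema3a, Brinp3 and Sox9 held 56.7% of the tumor-like cells of WT IgG, 5.83% of those of A159V IgG and 6.84% of those of A159V anti-PD1, and a cluster led by Prl2c3, Prl2c2 and Shisal2b held 30.7%, 64.9% and 78.0%. Most others lay in a cluster led by Shisal2b, Wfdc2 and Prl2c2. The ratios of A159V IgG over WT IgG were taken again within each cluster, a comparison added after the data were seen. In the order Sema3a, Prl2c3 and Shisal2b cluster, Fosb gave −1.21, −1.31 and −0.80, Dusp1 −1.69, −1.20 and −0.70 and Jun −0.79, −0.87 and −0.76. These 3 genes were lower beyond counting error in each cluster, by less than in the whole class, and Jun by less than 2-fold in each. Fos gave −0.62, −0.41 and 0.04 (−0.04 to 0.12), so that its 2-fold difference was not seen within any cluster. Junb (−0.37, 0.11 and 0.47) and Egr1 (0.10, 0.60 and 0.80) were higher in A159V IgG in 2 and 3 of the clusters. The median of the 10 members within a cluster was −0.50, −0.31 and 0.06.

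**Figure D2:**
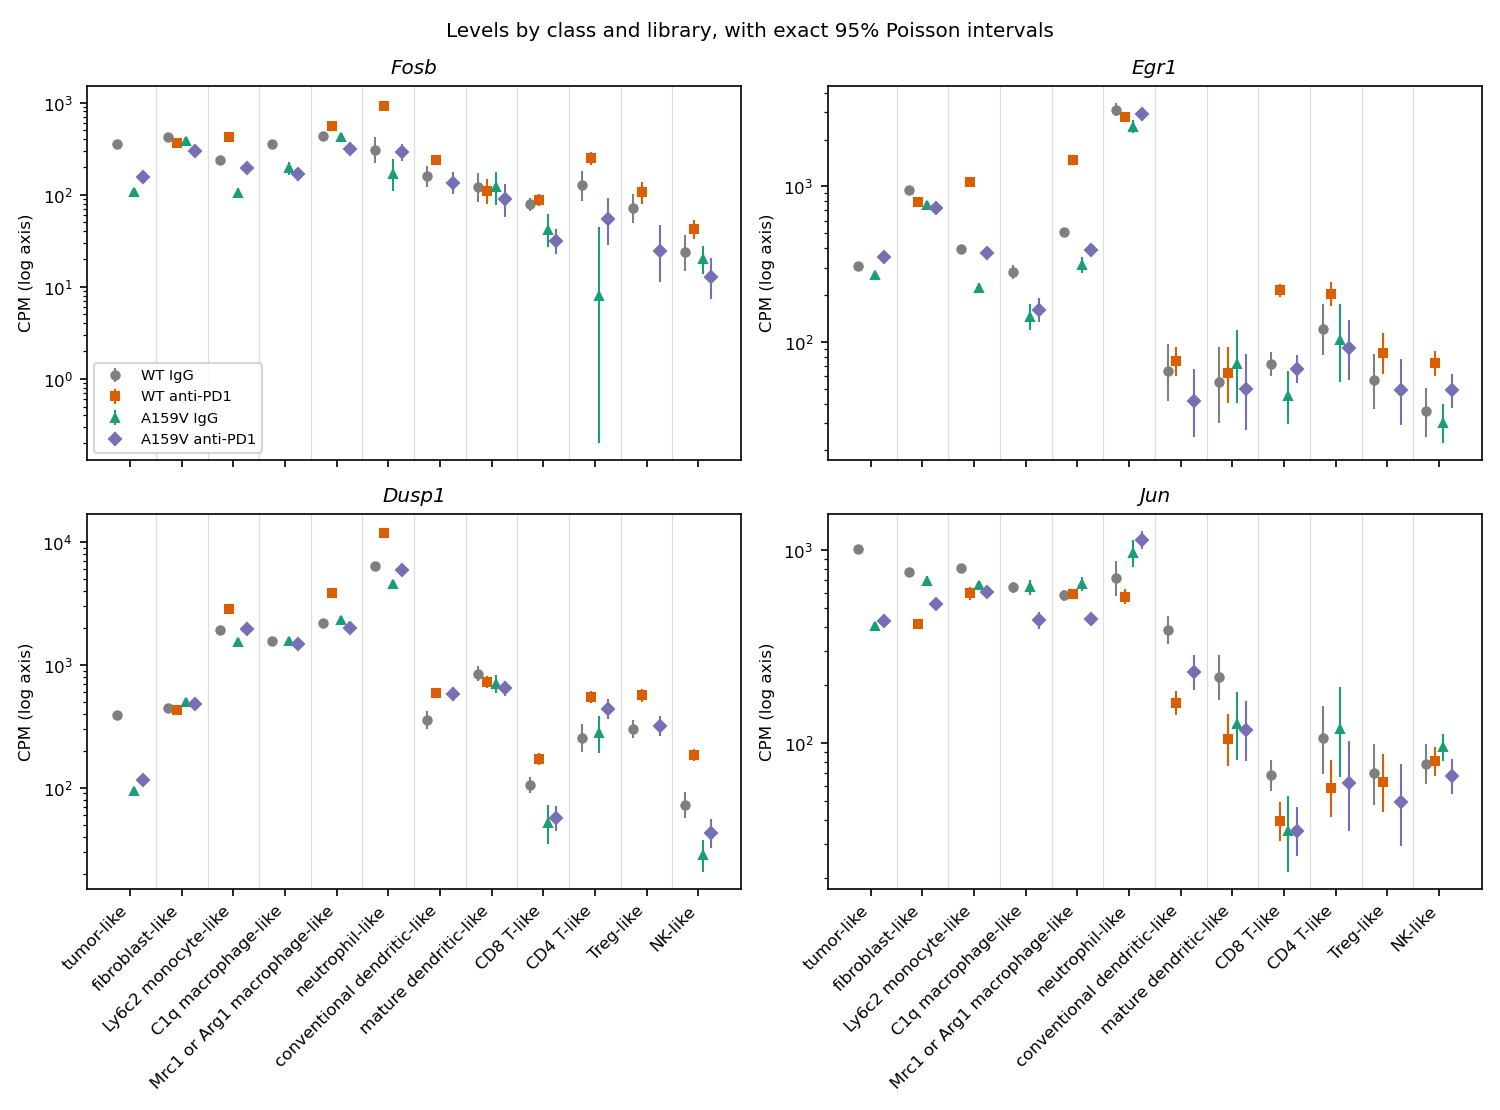
Levels of Fosb, Egr1, Dusp1 and Jun in CPM on a log axis by class, with 1 colored point per library and exact 95% Poisson intervals. In tumor-like cells Fosb, Dusp1 and Jun lie highest in WT IgG, at 352, 393 and 1016 CPM, and in most immune classes Egr1 and Dusp1 lie highest in WT anti-PD1.

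Outside the tumor-like cells, members had lower levels in the A159V IgG library than in WT IgG in most classes, mostly by less than 2-fold. Over all 10 classes the 10 members gave 87 tested pairs of gene and class, of which 10 (11.5%) were called lower and 0 higher, beside 2.85% lower and 3.95% higher for all genes (by class 0.429% to 8.08% lower). Without tumor-like cells it was 6 of 78 (7.69%). The median of the 10 members was below 0 in 9 of 10 classes, the exception being Mrc1 or Arg1 macrophage-like cells at 0.11, and the median over classes was −0.27. The median over all genes tested lay between −0.03 and 0.07 in 9 of these classes and at 0.24 in neutrophil-like cells. Within clusters of the Mrc1 or Arg1 macrophage-like cells, the member median was above 0 only in a cluster led by C1qa, C1qc and C1qb (0.24). It was −0.46 in a cluster led by Ccl8, Retnla and Mrc1 and −0.28 in a cluster led by Mmp13, Pf4 and Cxcl3. CD8 T-like cells had the lowest member median at −0.82, followed by tumor-like cells at −0.72. Over the tested members only, the medians were −0.93 in CD8 T-like, −0.43 in neutrophil-like, −0.36 in tumor-like and −0.12 in NK-like cells. The place of the tumor-like cells in this order thus depended on Egr2, which was not tested there.

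Fosb and Fos were the members with ratios below 0 in 10 of 10 classes. Fosb in Ly6c2 monocyte-like cells stood at 238, 426, 105 and 196 CPM, with the lowest value in A159V IgG and the highest in WT anti-PD1, and A159V IgG over WT IgG gave a log2 ratio of −1.18 (−1.36 to −1.0). In C1q macrophage-like cells it stood at 355 CPM in WT IgG, 192 CPM in A159V IgG and 166 CPM in A159V anti-PD1. In CD8 T-like cells Fosb was 78.6, 87.7, 41.3 and 31.3 CPM, so that both WT libraries lay above both A159V libraries. It did not differ beyond counting error in NK-like cells (−0.25, −1.0 to 0.49), mature dendritic-like cells (−0.02, −0.78 to 0.73) or Mrc1 or Arg1 macrophage-like cells (−0.00, −0.18 to 0.18). The CD4 T-like ratio of −3.83 (−6.39 to −1.27) rested on 1 UMI in A159V IgG. The median over classes was −0.89 for Fosb and −0.37 for Fos. Among 1224 genes tested in every class, 1.72% were below 0 in all of them. Fosb and Fos each reached 50 CPM in 9 of the 10 classes, so neither is among these genes.

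Other members differed by class. Dusp1 was called lower in CD8 T-like (−1.02, −1.56 to −0.48) and NK-like cells (−1.33, −1.86 to −0.81), and was level in C1q macrophage-like cells (0.00, −0.10 to 0.10). Egr1, which sits on ERK signaling, was lower beyond counting error in Ly6c2 monocyte-like, C1q macrophage-like and Mrc1 or Arg1 macrophage-like cells, with ratios of −0.83, −0.95 and −0.69. Fos was called lower in CD8 T-like cells (−1.62, −2.44 to −0.80), where it stood at 62.9 CPM in WT IgG and 19.8 CPM in A159V IgG. Atf3, a stress-induced repressor, was called lower in mature dendritic-like cells alone (−1.23, −2.25 to −0.21). Jund and Jun had ratios on both sides of 0, with medians over classes of −0.00 and −0.08.

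**Figure D3:**
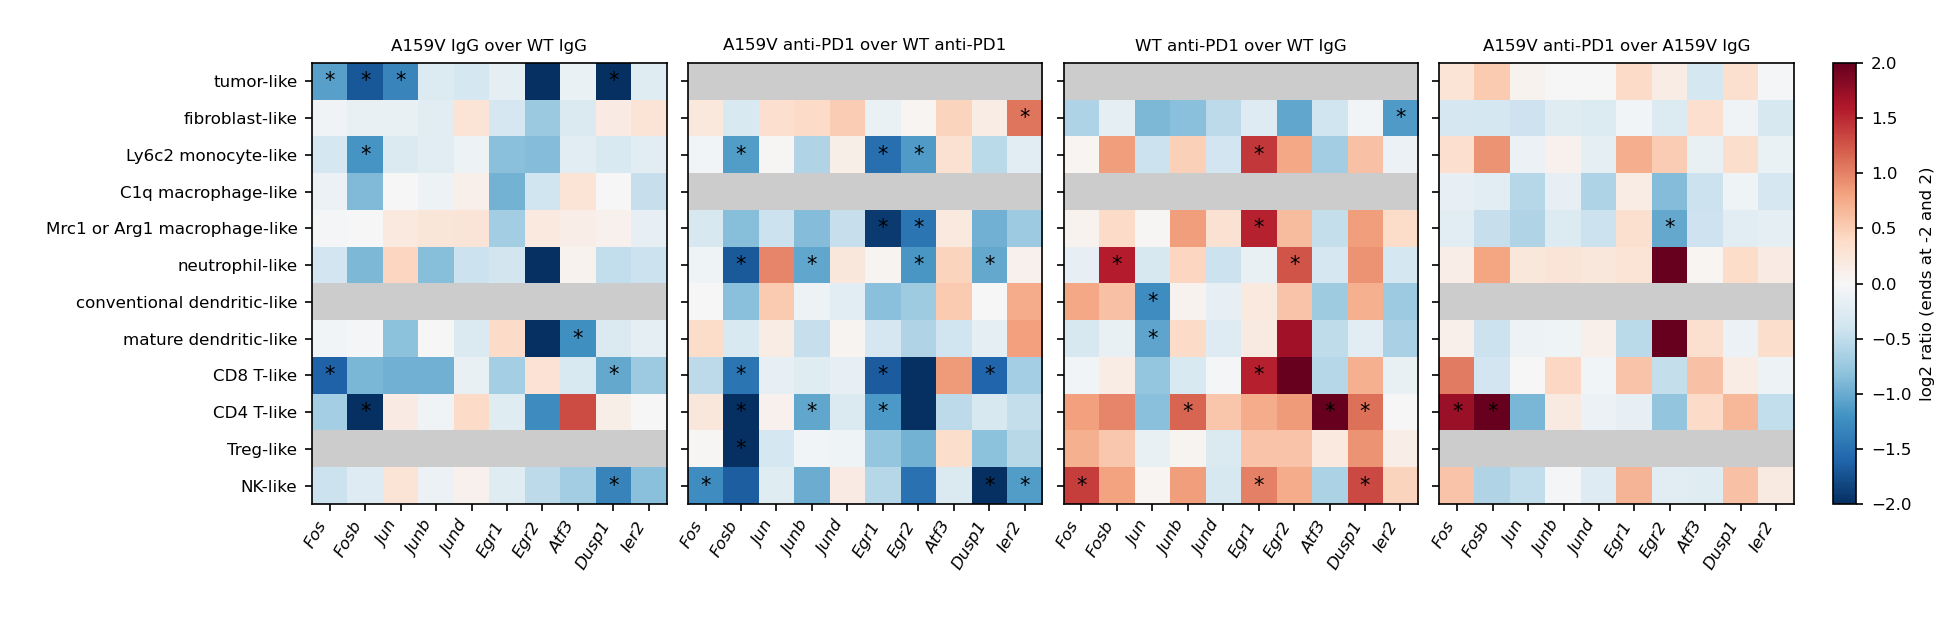
Heat map of the log2 ratios of the 10 members in each class for the 4 comparisons, with blue and red ends at −2 and 2, asterisks on called ratios and gray where a library held fewer than 50 cells. The Fosb column is below 0 in 10 of 10 classes in both comparisons of A159V with WT.

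Under anti-PD1 the median of the members was lower in A159V than in WT in most immune classes, and Fosb, Egr1, Egr2 and Dusp1 made up most of the calls. Atf3 went the other way, with a median over classes of 0.33. Its interval lay above 0 in 6 of 10 classes and below 0 in 0. Jun and Fos had medians over classes of 0.06 and −0.03. Of 89 tested pairs 19 (21.3%) were called lower and 1 higher, beside 7.56% lower and 6.65% higher for all genes (by class 2.76% to 17.3% lower). The member median was below 0 in 9 of 10 classes and its median over classes was −0.42, from −1.05 in NK-like cells, where all genes had a median of −0.26, to 0.28 in fibroblast-like cells. Egr1 in Mrc1 or Arg1 macrophage-like cells stood at 507, 1476, 313 and 391 CPM. WT anti-PD1 was the high library and A159V IgG the low one, and the ratio of A159V anti-PD1 over WT anti-PD1 was −1.91 (−2.01 to −1.82). In Ly6c2 monocyte-like cells Egr1 stood at 396, 1060, 222 and 370 CPM, with the same high and low libraries and a ratio of −1.51 (−1.62 to −1.41). In both classes the libraries lay in different clusters. A cluster led by Ccl8, Retnla and Mrc1 held 91.3% of the Mrc1 or Arg1 macrophage-like cells of WT anti-PD1 and 16.7% to 36.0% of those of the other libraries, and 62.2% of the Ly6c2 monocyte-like cells of WT anti-PD1. Within that cluster the Mrc1 or Arg1 macrophage-like ratio of Egr1 was −2.38 (−2.56 to −2.20), and within a cluster led by C1qa, C1qc and C1qb it was −0.81 (−1.14 to −0.49). No cluster held enough Ly6c2 monocyte-like cells of both anti-PD1 libraries for a ratio. Neutrophil-like Egr1, at 3119, 2809, 2427 and 2921 CPM, did not follow that order, and its ratio was 0.06 (−0.06 to 0.17), which lies below 0 under the median-of-ratios scaling given below.

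Fosb was again below 0 in 10 of 10 classes, with an interval below 0 in 9 of them and a median of −1.29. In neutrophil-like cells it stood at 309, 920, 166 and 288 CPM, so that WT anti-PD1 was the high library and the other libraries lay well below it. The ratio was −1.67 (−1.99 to −1.35). The ratios were −2.18 (−2.98 to −1.37) in CD4 T-like, −2.06 (−3.03 to −1.08) in Treg-like and −1.46 (−1.93 to −0.98) in CD8 T-like cells, and fibroblast-like cells had −0.31 (−0.42 to −0.20). Among 1337 genes tested in every class, 9.65% were below 0 in all of them, a larger background than between the IgG libraries. Fosb reached 50 CPM in 9 of the 10 classes, so it is not among these genes. Both comparisons of A159V with WT use different libraries, so neither shares a control with the other.

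Dusp1 and Junb, a JUN subunit that restrains JUN, were lower in A159V anti-PD1 in the same myeloid classes. Dusp1 in neutrophil-like cells stood at 6438, 11978.5, 4592 and 5921 CPM, and Junb at 6330, 8555, 3512 and 4183 CPM. WT anti-PD1 was highest and A159V IgG lowest for both. The log2 ratios were −1.02 (−1.09 to −0.94) for Dusp1 and −1.03 (−1.12 to −0.95) for Junb. In neutrophil-like cells 17.3% of all genes tested were called lower and 20.4% higher, and a median-of-ratios scaling lowers every ratio there by 0.39. Dusp1 was also called lower in NK-like (−2.08, −2.47 to −1.68) and CD8 T-like cells (−1.59, −1.94 to −1.23). Ier2, a small early response protein, was the 1 member called higher, in fibroblast-like cells (1.07, 0.94 to 1.21), where it stood at 230, 105, 278 and 222 CPM and WT anti-PD1 was the low library.

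The comparison of WT anti-PD1 with WT IgG placed the members on different sides of 0. Dusp1 was above 0 beyond counting error in 8 of 10 classes and below 0 beyond it in none, with a median of 0.77. All genes tested had medians above 0 in most classes as well. These ran from −0.06 in Mrc1 or Arg1 macrophage-like cells to 0.28 in CD8 T-like and 0.41 in NK-like cells. Egr1 had a median of 0.66 and was called higher in Mrc1 or Arg1 macrophage-like (1.54, 1.43 to 1.65, but 0.59 and 0.97 within the Ccl8 and C1qa clusters), Ly6c2 monocyte-like (1.42, 1.32 to 1.52), CD8 T-like (1.56, 1.27 to 1.85) and NK-like cells (1.0, 0.46 to 1.55). The NK-like call lay at the threshold, in a class where 16.2% of 4227 genes were called higher. Median-of-ratios scaling moves every NK-like ratio by −0.34, which takes this one below the threshold. Of the Ly6c2 monocyte-like cells, 62.2% in WT anti-PD1 and 1.26% in WT IgG lay in the Ccl8 cluster. No cluster held enough of them in both libraries for a ratio. Jun had a median of −0.60, with calls in conventional dendritic-like cells, where it stood at 386 and 162 CPM (−1.25, −1.56 to −0.94), and in mature dendritic-like cells (−1.06, −1.63 to −0.49). Of 90 pairs 11 (12.2%) were called higher and 3 lower, beside 10.4% and 8.25% for all genes, so that the share called higher was close to the background. The member median was above 0 in 6 of 10 classes. In fibroblast-like cells all 10 members were below 0, with a median of −0.56 beside 0.04 for all genes.

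CD4 T-like and CD8 T-like cells of WT anti-PD1 lay on opposite sides of WT IgG for Junb. Dusp1, Egr1 and Egr2 lay above WT IgG in both classes, counting error aside. Log2 ratios over WT IgG in CD4 T-like and CD8 T-like cells were 0.74 and 1.56 for Egr1 and 0.85 and 2.98 for Egr2. Dusp1 gave 1.1 and 0.71, and Junb 1.16 and −0.31. In CD4 T-like cells Junb stood at 1149, 2572, 1100 and 1248 CPM and Dusp1 at 256, 550, 277 and 440 CPM. Both were highest in WT anti-PD1, with ratios over WT IgG of 1.16 (0.98 to 1.34) and 1.1 (0.71 to 1.49). In CD8 T-like cells Junb was 704, 568, 360 and 479 CPM and thus not highest there. CD8 T-like Egr1 stood at 72.2, 215, 44.6 and 67.1 CPM, and Egr2, an early target of T cell receptor signaling, at 5.24, 48.3, 6.61 and 4.47 CPM. WT anti-PD1 was the single high library for both. The Egr2 values rested on 9, 92, 4 and 6 UMIs, and its level stayed under 50 CPM, so it was not tested. After thinning, Egr1 had a UMI in 10.6%, 24.4%, 7.93% and 7.05% of CD8 T-like cells, and without thinning in 21.7%, 38.1%, 9.18% and 16.4%. In thinned NK-like cells it was in 5.39%, 7.87%, 3.63% and 7.22%.

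**Figure D4:**
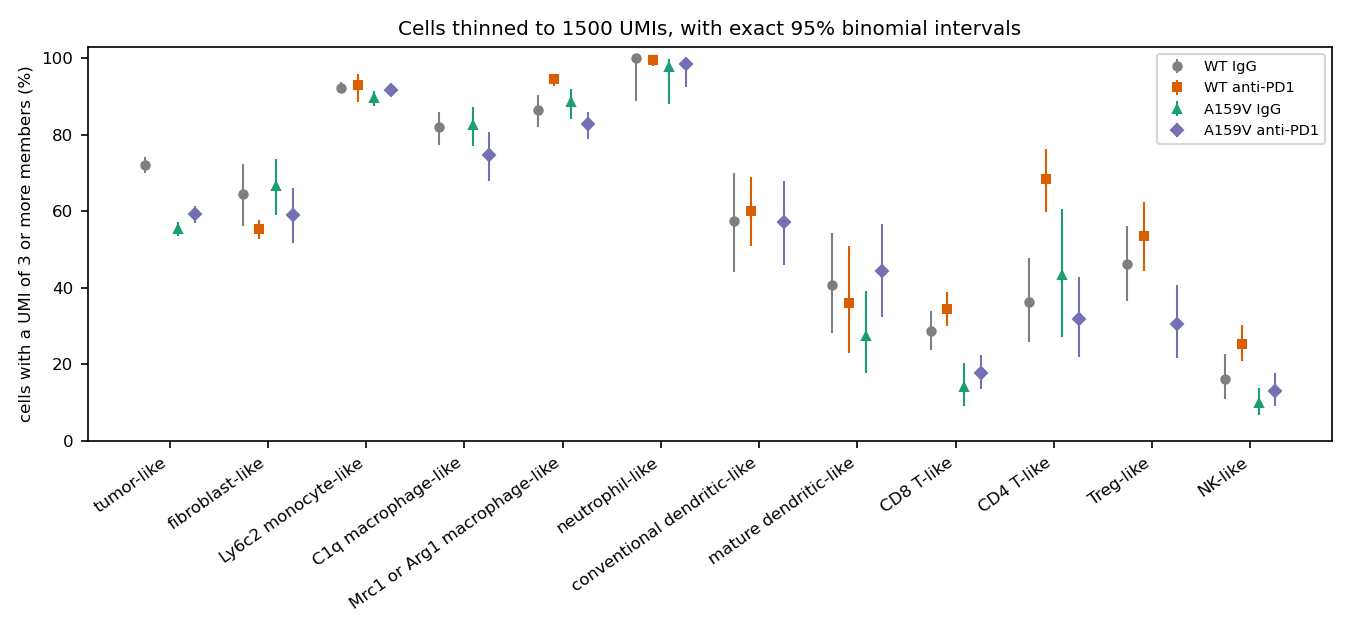
Percent of cells with a UMI of 3 or more of the 10 members after thinning each cell to 1500 UMIs, by class, with 1 colored point per library and exact 95% binomial intervals. Cells with fewer UMIs are left out, unequally by class and library. These include 51 of 82 neutrophil-like cells in WT IgG and 235 of 498 in WT anti-PD1. Of CD4 T-like cells, 11 of 91 are left out in WT IgG and 31 of 68 in A159V IgG. In CD8 T-like cells 28.6%, 34.4%, 14.0% and 17.6% of cells held 3 or more members, in the order WT IgG, WT anti-PD1, then A159V IgG and A159V anti-PD1.

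The WT anti-PD1 library carried more fibroblast RNA than the others in each other class of at least 50 cells, beside the member differences above. The 6 fibroblast markers summed to 561 CPM in its CD8 T-like cells and 33.0 to 56.6 CPM in those of the other libraries, to 618 against 29.2 to 54.8 CPM in NK-like cells and to 1066 against 54.0 to 179 CPM in neutrophil-like cells. Fibroblast RNA at that share would hold 5.51 CPM of Egr1, 2.99 CPM of Dusp1 and 0.0940 CPM of Egr2 in CD8 T-like cells, where 215, 172 and 48.3 CPM were measured. For NK-like Dusp1 it would hold 3.29 CPM of the 183 CPM measured, and RNA of neutrophil-like cells at the share of the 7 neutrophil markers would hold 5.71 CPM. For neutrophil-like Fosb it would hold 4.82 CPM of the 920 CPM measured. Fibroblast-like cells numbered 1686 in WT anti-PD1 and 145 to 202 elsewhere, and tumor-like cells 40 against 1762 to 2796. Only this library combines WT cells with anti-PD1, so its cell mixture, depth and handling cannot be told apart from the treatment.

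In A159V tumors the anti-PD1 and IgG libraries were closer. Of 81 pairs 2 (2.47%) were called higher and 1 lower, beside 2.99% and 3.19% for all genes, and the member median was below 0 in 4 of 10 classes with a median over classes of 0.02. The calls were Fos (1.72, 0.66 to 2.78) and Fosb (2.62, −0.00 to 5.25) in CD4 T-like cells, the second resting on 1 UMI in A159V IgG, and Egr2 in Mrc1 or Arg1 macrophage-like cells (−1.03, −1.42 to −0.64). Fosb was higher beyond counting error in Ly6c2 monocyte-like (0.89, 0.71 to 1.08), neutrophil-like (0.79, 0.16 to 1.42) and tumor-like cells (0.52, 0.49 to 0.56), and lower in Mrc1 or Arg1 macrophage-like (−0.46, −0.63 to −0.28) and fibroblast-like cells (−0.36, −0.51 to −0.20).

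The anti-PD1 difference was set side by side in the 2 genotypes, whose 4 libraries are all different. In Mrc1 or Arg1 macrophage-like cells the log2 ratio of anti-PD1 over IgG was higher in WT than in A159V by 1.22 (1.0 to 1.44) for Egr1, 1.11 (1.01 to 1.21) for Junb and 1.05 (0.96 to 1.14) for Dusp1. Within the Ccl8 cluster of that class, Egr1 gave 0.59 (0.43 to 0.74) in WT and −0.53 (−0.90 to −0.15) in A159V, and within the C1qa cluster 0.97 (0.64 to 1.30) and 0.82 (0.38 to 1.25). In Ly6c2 monocyte-like cells the gap was 0.68 (0.52 to 0.85) for Egr1 and −0.06 (−0.30 to 0.18) for Fosb. No cluster held enough of these cells in both WT libraries for a ratio within it. In CD8 T-like cells it was 3.46 (1.69 to 5.22) for Egr2, 0.98 (0.31 to 1.65) for Egr1 and −0.72 (−0.97 to −0.47) for Junb. Fibroblast-like cells showed gaps of the other sign, −0.80 (−1.03 to −0.57) for Ier2 and −0.59 (−0.73 to −0.46) for Junb. These intervals hold counting error alone and the gaps were not tested against variation between tumors.

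**Figure D5:**
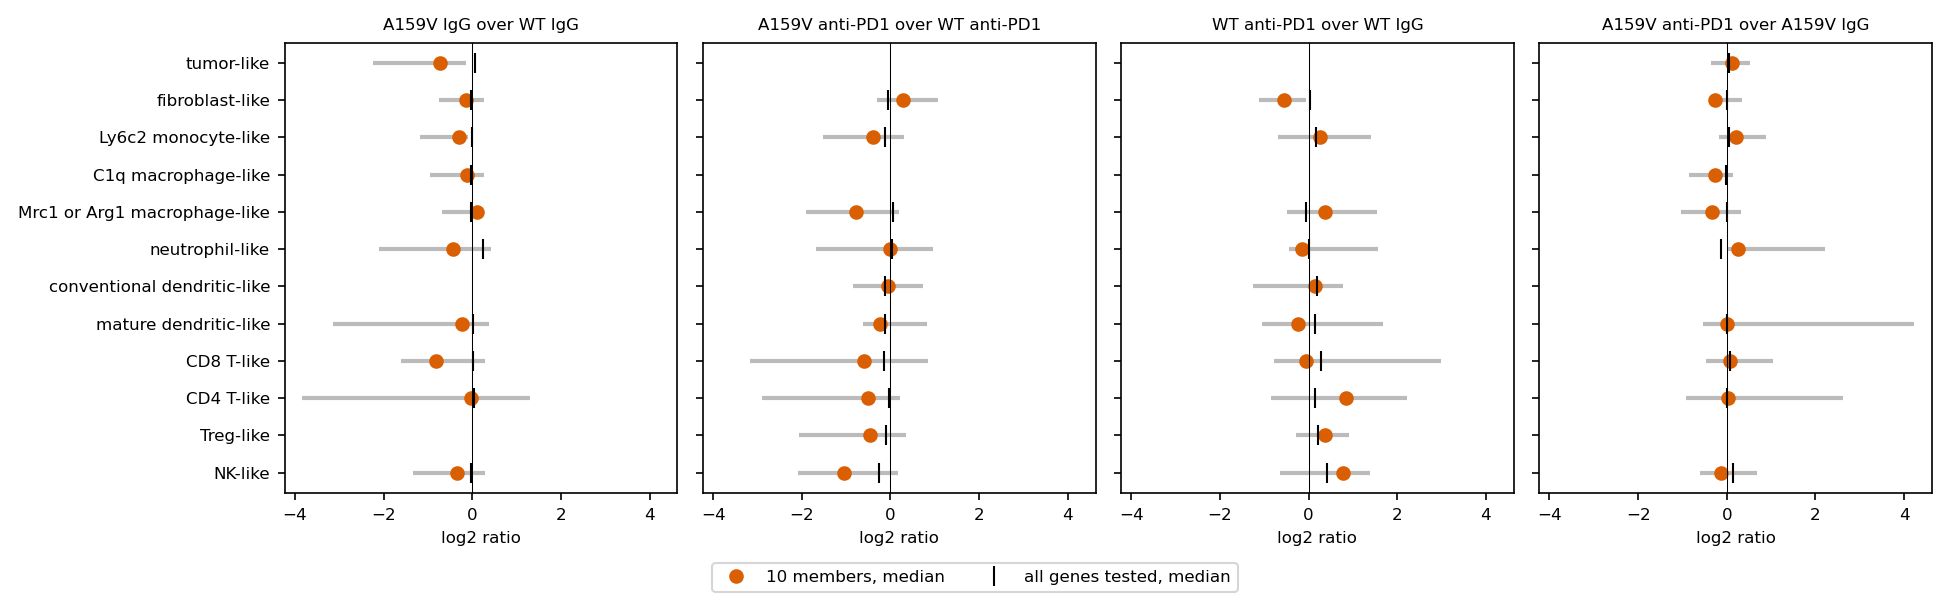
Median log2 ratio of the 10 members in each class for the 4 comparisons (orange points), with gray bars from the lowest to the highest member and black ticks at the median over all genes tested in the class. Member medians lie below 0 in 9 of 10 classes in both comparisons of A159V with WT, and lie on both sides of 0 in both comparisons of anti-PD1 with IgG.

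Other genes of the early response were taken from 7 lists, of which 83 of 84 genes were found. Between the IgG libraries, 27 other immediate early genes gave 22 calls lower and 3 higher in 203 pairs, beside 2.85% lower and 3.95% higher for all genes. Nr4a3 and Nr4a2, orphan nuclear receptors that follow calcium and cAMP signals, were called lower in 5 of 8 and 3 of 8 classes. The 9 NF-κB early genes gave 7 lower and 0 higher of 71 pairs, the 12 other AP-1 family genes 1 lower and 2 higher of 56, the 4 EGR family genes and corepressors 2 lower and 0 higher of 10, the 12 ERK feedback genes 1 lower and 2 higher of 46, the 13 heat shock genes 0 lower and 4 higher of 100, and the 6 serum response and ternary complex factor genes 0 lower and 1 higher of 27. The heat shock share called higher was thus near that of all genes. The heat shock median over classes was 0.04 and that of the other immediate early genes −0.14.

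Under anti-PD1, A159V over WT gave 40 calls lower and 14 higher in 202 pairs for the other immediate early genes, 17 lower and 0 higher of 78 for NF-κB early genes, and 15 lower and 1 higher of 52 for ERK feedback genes, beside 7.56% lower and 6.65% higher for all genes. The other immediate early genes called higher were near that share. Heat shock genes gave 16 lower and 5 higher of 101, other AP-1 genes 7 lower and 1 higher of 64, EGR family genes 3 lower and 0 higher of 14, and serum response genes 2 lower and 0 higher of 34. Hspa1b, an inducible heat shock chaperone, was called lower in 6 of 10 classes with a median of −1.85 where called. Ppp1r15a, a stress-induced phosphatase subunit, was called lower in 5 of 10, Nr4a1 in 5 of 9 and Sgk1 in 5 of 7. Btg2, an antiproliferative early gene, was called higher in 5 of 10 with a median of 1.35. The early genes were therefore not all on one side.

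In WT anti-PD1 over WT IgG the same lists gave 38 higher and 17 lower of 203 pairs for other immediate early genes, 14 and 0 of 63 for other AP-1 genes, 13 and 1 of 50 for ERK feedback, 10 and 2 of 77 for NF-κB early genes, 9 and 4 of 102 for heat shock, 4 and 0 of 34 for serum response genes and 3 and 0 of 14 for EGR family genes. Of all genes 10.4% were called higher and 8.25% lower, and the NF-κB, heat shock and serum response lists were near the first of these shares. Sgk1, a serum-induced kinase, was called higher in 6 of 8 classes, Hspa1b in 5 of 10 and Phlda1 in 4 of 6, and Btg2 was called lower in 4 of 10. This comparison shares WT anti-PD1 with the one before it. In A159V anti-PD1 over A159V IgG 2.99% of all genes were called higher and 3.19% lower. Other immediate early genes gave 4 higher and 5 lower of 191 pairs, near these shares. Heat shock genes gave 3 and 7 of 100, the first near its share, and Dnajb1 was called lower in 2 of 6 classes. Other AP-1 genes gave 3 and 2 of 58, ERK feedback 3 and 1 of 48 and NF-κB early genes 0 and 3 of 68. Serum response genes gave 2 and 1 of 29 and EGR family genes 0 and 0 of 10.

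Across the 44 class and library profiles, which share 4 libraries, the same 12 classes and their depth, 8 members varied together, with Pearson r between 0.52 and 0.92, whereas r with these 8 lay between 0.39 and 0.62 for Egr2 and between −0.04 and 0.42 for Jund. Fos and Atf3 had the highest r of any member pair at 0.92, followed by Junb and Dusp1 at 0.91, whereas Jund and Atf3 had −0.04. Among 8252 genes compared, those most like the member mean included Lamp2 (0.93), Gm34455 (0.93), Nfe2l2 (0.91), Trib1 (0.91), Ptgs2 (0.90), Cebpb (0.89), Slc31a2 (0.89), Msrb1 (0.89) and Ifrd1 (0.89). Junb was most like Nfkbia (0.95), Dusp1 most like Zfp36 (0.95), Atf3 most like Zfand5 (0.94), Egr1 most like F3 (0.89) and Fosb most like Lsmem1 (0.87). These coefficients describe which classes hold the RNA.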

How the data were processed

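Single-cell RNA-seq of 4 MC38 tumor libraries, 1 per group, was analyzed. The deposited files hold raw counts, whole-number UMIs for each gene and cell barcode, from 10x 3′ libraries. The authors ran Cell Ranger on mm10, as version 7.2.0 in the file headers and 5.0.1 in the submitters' processing notes, and kept barcodes called as cells. They removed background RNA and doublets later, so the files precede that step. Cells with more than 500 genes were kept, and predicted doublets (the highest scores among nearest neighbors, at 0.8% per 1000 cells) were removed, 374 to 631 per library, with no limit on mitochondrial UMIs and no subtraction of background RNA. The libraries shared 13 to 22 barcodes per pair.

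Each cell was gated on UMIs of marker lists and needed at least 2 marker UMIs, 10% of the reference score of its list (from its 100 highest cells) and 1.5 times the next list. The gate was tuned after its first output was seen. As a check, cells were clustered in scanpy 1.11.5 (2000 variable genes without the members and lists, 20 components, 20 neighbors, Leiden resolution 1), and 85.9% of gated cells took the same name by cluster, with 57.2% for Mrc1 or Arg1 macrophage-like, 64.5% for CD4 T-like and 71.8% for CD8 T-like cells. Counts were summed per class and library, and no test was possible. Poisson, Clopper-Pearson and delta-method intervals at 95% came from scipy 1.17.1. PCR duplicates collapse into UMIs, and intervals cover counting error only. The ratio script was tested on simulated data. All 10 members are named. Of the lists, at most 5 genes per comparison and direction are named, those called in the most classes, and genes alike are the 10 nearest to the member mean and the 3 nearest to each member by Pearson r. Of the former, 1 is not reported here. The members and lists were chosen with earlier results of these data known. Coordinates and promoters are on GRCm38 from GENCODE M21 and RefSeq. Dusp1 shares its strand with Gm50275, which had at most 5 UMIs in any class and library. Alternatives were another minimum of genes, a mitochondrial limit, doublets kept, cluster classes, another scaling, per-cell means, a pseudocount of 10 CPM, classes of at least 100 cells and thinning to 1000 UMIs. Members were also compared within clusters of a class.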

Additional observations from a re-analysis of the deposited data

Results flagged for a closer look

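Egr2, a zinc finger factor of the early wave, differed in opposite directions between the antibody arms of the genotypes in Mrc1 or Arg1 macrophage-like cells. It stood at 89.5 CPM in WT IgG (136 UMIs) and 139 CPM in WT anti-PD1 (837 UMIs), a log2 ratio of 0.63, and at 102 CPM in A159V IgG (93 UMIs) and 49.7 CPM in A159V anti-PD1 (115 UMIs), a log2 ratio of −1.03. The ratio in WT exceeded that in A159V by 1.66, with a counting interval of 1.19 to 2.13. There was 1 library per group, so the difference was not tested. WT anti-PD1 cells of this class had a summed fibroblast marker level of 553 CPM, against 40.8 to 85.1 CPM in the other libraries, and 57.2% of the gated cells of this class took the same name by cluster. The cluster led by Ccl8, Retnla and Mrc1 held 91.3% of this class in WT anti-PD1 and 16.7% to 36.0% elsewhere. Within it the ratios were 0.52 (0.04 to 1.0) in WT and −1.86 (−2.75 to −0.98) in A159V, and within the cluster led by C1qa, C1qc and C1qb they were −0.36 (−1.21 to 0.49) and −1.29 (−1.89 to −0.69). The part of the fibroblast RNA in the difference was not tested.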

How the results depend on the processing

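No paired analysis was possible because the labels give no replicate numbers and each group holds 1 library, so no library could be left out in turn either. Counting 1 added after the data were seen (cells given the same name by gate and by cluster), 10 alternatives were run. The median over classes of the members' median log2 ratio lay between −0.47 and −0.23 for A159V IgG over WT IgG, between −0.52 and −0.18 for A159V anti-PD1 over WT anti-PD1, between −0.08 and 0.31 for WT anti-PD1 over WT IgG and between −0.14 and 0.12 for A159V anti-PD1 over A159V IgG, so the last 2 comparisons had no settled direction. The number of classes below 0 in WT anti-PD1 over WT IgG was 4 of 10, and became 2 of 8 with more than 1000 genes per cell and 2 of 6 with classes of at least 100 cells, where fewer classes remained, but 6 of 11 with predicted doublets kept and 6 of 10 with classes from clusters. Fosb kept a median below 0 in both comparisons of A159V with WT under the 9 alternatives in which it was computed, −0.97 to −0.57 and −1.42 to −1.11, and Dusp1 kept one above 0 in WT anti-PD1 over WT IgG, 0.65 to 0.81. Of 360 medians of a member over classes, 22 changed sign, from main values of up to 0.28 in size. Of 346 member medians in a class, 23 changed sign, and 312 moved within counting error. The largest of these was NK-like cells in WT anti-PD1 over WT IgG, 0.77 and −0.02 with predicted doublets kept. Median-of-ratios scaling moved the ratios of a class by −0.39 to 0.34, with both ends in neutrophil-like cells, whose 82 to 498 cells were also the shallowest of the 12 classes at medians of 1348 to 1542.5 UMIs.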

Other observations

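The tumor-like class of WT anti-PD1 held too few cells for a comparison. Its 40 tumor-like cells had 610 CPM of Junb and 347 CPM of Egr1, beside 876 and 307 CPM in the 1762 cells of WT IgG.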
